A study of Mus musculus with 23 samples.

Results

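Hematopoietic stem cells (HSC) of wild-type (WT) mice were sorted into a fraction with the surface protein CD41 and a fraction without it, and the RNA of the fractions was compared. CD41 is the alpha-IIb chain of the platelet fibrinogen receptor and is encoded by Itga2b. The comparison rests on 5 of the 23 libraries of the series, chosen by their labels alone: 2 of CD41-positive HSC (numbered 3 and 4) and 3 of CD41-negative HSC (numbered 1, 3 and 4). All 5 came from female C57BL/6 mice that the labels call Wildtype (WT), given tamoxifen on 5 consecutive days, with bone marrow taken 12 weeks later. WT mice thus received the same drug as the mutant animals of the series, which carried SclCre;V617F, a tamoxifen-inducible Cre driven from the stem cell leukemia gene that switches on the JAK2 mutation. The labels name SclCre for the mutant mice only. The age of the mice, and whether a library came from 1 mouse or a pool, are not given in the sources used here. Both fractions lay in the same stem cell gate, which took cells with Kit, Sca-1 and CD150 on the surface and neither CD48 nor mature lineage proteins, and the gates differed in CD41 only. Their cDNA was made with SMART-Seq v4 from RNA with an integrity number above 8.

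Other libraries served for comparison: 3 CD41-positive and 3 CD41-negative libraries of SclCre;V617F HSC made with the same kit, and 3 WT megakaryocyte progenitor (MkP) and 3 WT long-term HSC (LT-HSC) libraries made with SMART-Seq v2. In the V617F fractions the libraries numbered 2 were labelled male and the others female. MkP were sorted as cells with Kit, CD150 and CD41 but without Sca-1 or lineage proteins, and LT-HSC are the unsplit gate above. The second kit was never compared directly with the first.

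Megakaryocytes are the marrow cells that shed platelets. They carry adhesion receptors for collagen, von Willebrand factor and fibrinogen, store clotting proteins and chemokines in granules, and are specified by the factors GATA1, FLI1 and NFE2. Some HSC already express part of this programme and are known to give rise to platelets preferentially, and CD41 on the HSC surface is one of the marks used to find them. Most HSC in the adult marrow rest outside the cell cycle.

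The 5 libraries held 17579314 to 22945853 counts in genes, with 15998 to 16428 genes detected. Values below are CPM, the usual depth-normalised counts, scaled for library composition by the TMM method and given in the order CD41-negative libraries 1, 3 and 4, then CD41-positive libraries 3 and 4. CD41-negative libraries 1 and 3 stood apart from the rest. Reads of the Lars2 gene took 1.38% and 1.68% of their counts, against 0.101% in CD41-negative library 4 and 0.134% and 0.123% in the CD41-positive libraries. The rank correlation across genes was 0.996 between both CD41-positive libraries, 0.982 between CD41-negative libraries 1 and 3, and 0.974 and 0.966 between each of these and library 4. Library 4 in turn correlated at 0.985 to 0.986 with the V617F CD41-negative libraries. With WT CD41-positive libraries 3 and 4 it correlated at 0.975 and 0.97, about as highly as with CD41-negative libraries 1 and 3. CD41-negative library 1 also held neutrophil granule RNA: its summed granulocyte list was 833 CPM, against 304 and 303 in the other CD41-negative libraries and 153 and 134 in the CD41-positive ones. Many list counts and some single genes are therefore given with all 3 CD41-negative libraries and again with library 4 as the sole CD41-negative sample. The spread of this sole sample is then assumed to be like that of the other groups.

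Among the gate genes Itga2b and Cd48 followed the labels, while Kit, Ly6a and Slamf1 also differed between the fractions in RNA. Itga2b read 148, 232 and 181 CPM in the CD41-negative libraries and 794 and 916 CPM in the CD41-positive ones. The groups did not overlap, and the difference was 2.19 ± 0.20 on the log2 scale (± SE throughout; adjusted p = 3.5e-05), which checks the sort and is no finding. Kit, the stem cell factor receptor, read 4000.4, 2049, 1947, 1361 and 1420.2 CPM (adjusted p = 0.0242 for the lower level in CD41-positive libraries, and 0.132 and 0.126 without CD41-positive library 3 or 4), and Cd48 stayed at 1.37 to 2.42 CPM in all 5 libraries. The log2 difference of Kit was -0.94, and -0.49 with library 4 as the sole CD41-negative sample. Ly6a, which encodes Sca-1, read 174, 144, 216, 61.7 and 50.8 CPM, and was 3.16-fold lower in the CD41-positive libraries (adjusted p = 0.000239). Slamf1, which encodes CD150, read 39.8, 50.9, 57.9, 85.0 and 83.4 CPM and was 1.70-fold higher (adjusted p = 0.00235). Among lineage genes the T cell markers Cd3e and Cd8a were listed at 0 in all 5 libraries, but other lineage genes had RNA and differed. Of 7 tested, 4 were lower and none higher, against 18.2% of all genes lower. All 7 differences were negative, with a median log2 of -1.71, and -1.62 with library 4 as the sole CD41-negative sample. Ptprc read 336, 315, 323, 237 and 228 CPM and Cd4 5.59, 3.50, 4.13, 1.17 and 1.51 CPM.

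Upstream sequences of genes that define the comparison are shown with their letters, since later results refer to them. Each is the 250 bases before the start of the gene in the RefSeq table for GRCm38.p6, written in the sense of the gene, 5′ to 3′. In the platelet genes, capitals mark GATA letters (AGATAA or else TGATAA, also AGATAG or else TGATAG) and ETS letters (AGGAAG or else CGGAAG), searched on both strands, the sequences that GATA factors and FLI1-type factors are known to favour.
Itga2b, chr11:102469884-102470133, minus strand: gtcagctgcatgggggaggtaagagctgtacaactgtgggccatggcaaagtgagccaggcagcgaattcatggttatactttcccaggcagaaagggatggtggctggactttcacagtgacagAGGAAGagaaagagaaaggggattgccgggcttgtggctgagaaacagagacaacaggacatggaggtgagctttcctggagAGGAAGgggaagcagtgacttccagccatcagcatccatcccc
Gp1bb, chr16:18622404-18622653, minus strand: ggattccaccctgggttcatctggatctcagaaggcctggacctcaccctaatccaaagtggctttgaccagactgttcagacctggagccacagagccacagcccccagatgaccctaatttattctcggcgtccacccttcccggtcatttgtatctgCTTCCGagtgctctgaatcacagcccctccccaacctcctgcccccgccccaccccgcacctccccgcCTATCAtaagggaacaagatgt
Pf4, chr5:90772185-90772434, plus strand: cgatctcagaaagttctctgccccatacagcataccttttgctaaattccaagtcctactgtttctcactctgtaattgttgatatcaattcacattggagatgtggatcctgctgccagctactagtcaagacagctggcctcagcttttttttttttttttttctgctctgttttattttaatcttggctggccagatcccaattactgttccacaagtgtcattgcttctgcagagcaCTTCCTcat
In both mitosis genes, capitals mark the cell cycle homology region (TTTGAA) and the CCAAT box (CCAAT), again on both strands, which are known from promoters of genes that peak late in the cell cycle.
Cdk1, chr10:69352913-69353162, minus strand: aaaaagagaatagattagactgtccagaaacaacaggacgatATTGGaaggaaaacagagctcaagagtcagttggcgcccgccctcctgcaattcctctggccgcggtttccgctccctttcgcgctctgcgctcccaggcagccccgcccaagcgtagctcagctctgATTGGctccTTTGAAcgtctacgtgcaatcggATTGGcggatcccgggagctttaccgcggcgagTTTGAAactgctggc
Ckap2l, chr2:129297213-129297462, minus strand: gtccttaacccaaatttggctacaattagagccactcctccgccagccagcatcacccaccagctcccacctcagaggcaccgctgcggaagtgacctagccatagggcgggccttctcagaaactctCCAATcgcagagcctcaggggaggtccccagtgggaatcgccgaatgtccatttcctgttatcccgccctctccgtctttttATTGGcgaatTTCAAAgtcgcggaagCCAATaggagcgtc
Itga2b held the ETS letters at 125 and 43 bases before the start, and Gp1bb held ETS letters at 90 and GATA letters at 22 bases. Pf4 held 1 ETS match, at 9 bases, and no GATA match in this window. In Cdk1, TTTGAA stood at 71 and 15 bases and CCAAT, read on the other strand, at 208, 80 and 48. Ckap2l carried the TTTGAA letters on the other strand at 30 bases and CCAAT at 122 and 14 bases, with another on the other strand at 40. These matches are descriptions of letters, and no binding was measured.

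Between the fractions, 4917 of 14467 genes tested passed at an adjusted p under 0.05 (34%). CD41-positive HSC had 2277 genes higher (15.7% of those tested) and 2640 lower (18.2%). At 2-fold or more, 687 were higher (4.75%) and 1097 lower (7.58%). Over all genes the median log2 difference was -0.04, so the scale was close to balanced. The count depended on single libraries: it was 1949 without CD41-positive library 3, 1215 without CD41-positive library 4 and 2028 when the V617F libraries did not share in the estimate of the spread. Without CD41-negative library 4 the genes higher came to 3507. With CD41-negative libraries 1 and 3 left out, 929 genes were higher (6.33% of 14684) and 997 lower (6.79%). Of the calls that could be measured in that fit, 4881 of 4903 kept their sign (99.6%). With all libraries, groups did not overlap for 98.7% of the 4917 genes and for 56.8% of all tested. For genes without overlap, leaving out libraries can hardly change the sign, so the kept signs are no separate support. There were 514 genes higher and 476 lower that passed in the same direction with all libraries and in all 15 alternatives run. Replicate libraries are not stated to be separate animals, so the p-values measure the spread between these libraries. Fewer cells of a type and less RNA per cell cannot be told apart in such bulk samples.

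Shorter genes tended to be higher in the CD41-positive fraction. Genes were split by model length into 4 parts of equal size. Among the shortest, up to 1739 bases, 24.8% were higher and 8.71% lower, with a median log2 of 0.22. Among the longest, of 4335 bases or more, 9.13% were higher and 26.4% lower, with a median of -0.23. With library 4 as the sole CD41-negative sample both medians were 0.15 and -0.14, and in V617F they were 0.25 and -0.20. Ribosomal protein and respiratory chain genes are short, and the part of gene length in their differences was not tested.

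Genes of platelet receptors rose in CD41-positive HSC. Of 24 megakaryocyte and platelet surface receptor genes tested, 16 passed as higher and 1 as lower, with a median log2 of 1.30 against -0.04 for all genes. With CD41-negative libraries 1 and 3 left out 14 passed as higher and none as lower, and the median was 1.18. The list holds Itga2b, the gene of the sorted protein, without which 15 of 23 were higher and 1 lower at a median of 1.25, and 13 and 0 with those libraries left out. Gp6, Cd226 and Adra2a were below the count filter.

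The receptor for von Willebrand factor is built from Gp1ba, Gp1bb, Gp5 and Gp9, and each of its genes rose. Gp1bb was nearly silent in the CD41-negative libraries, at 2.66, 7.99 and 6.4 CPM, and reached 92.9 and 98.0 CPM in the CD41-positive ones. That is a 16.8-fold difference (log2 4.07 ± 0.39, adjusted p = 4.06e-05) between groups that did not overlap. Gp5 went from 33.9, 56.0 and 50.4 CPM to 161 and 165 CPM (3.49-fold, adjusted p = 0.000494). Gp1ba read 13.4, 16.1 and 16.1 CPM against 36.1 and 36.1 CPM (2.38-fold, adjusted p = 0.000695). Gp9 had the smallest difference of the complex, at 25.7, 44.5 and 34.0 CPM against 69.3 and 63.9 CPM (1.92-fold, adjusted p = 0.00806), and it did not pass without either CD41-positive library. Per kilobase of gene model the complex was led by Gp9 at 82.1 CPM in the CD41-positive group, followed by Gp5 at 74.2, Gp1bb at 45.8 and Gp1ba at 13.2.

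Itgb3, the beta chain that pairs with CD41 in the fibrinogen receptor, rose along with it, from 74.9, 93.9 and 67.4 CPM to 217 and 184 CPM (2.55-fold, adjusted p = 6.64e-05). Receptors for soluble agonists were also higher. The ADP receptor P2ry1 read 8.62, 12.1 and 12.3 CPM against 76.6 and 75.7 CPM, a 6.91-fold difference. F2rl2 and F2r encode thrombin receptors of the protease-activated family. F2rl2 rose from 3.62, 2.52 and 7.30 CPM to 69.3 and 64.0 CPM (14.8-fold, adjusted p = 5.36e-05) and F2r from 127, 152 and 179.7 CPM to 491 and 431 CPM (3.02-fold). Another member of that family, F2rl3, was level at 78.4, 80.9 and 75.4 CPM against 77.6 and 79.2 CPM, with overlapping groups and a log2 difference of 0.00 ± 0.12. Treml1, a receptor stored in platelet granules, went up 5.21-fold (adjusted p = 0.000816).

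Some receptors of the list did not follow this pattern. Pear1, a platelet contact receptor, was the member that fell, from 389.8, 439 and 270.4 CPM to 216 and 215 CPM (1.70-fold lower, adjusted p = 0.00778), and its adjusted p was 0.0931 with libraries 1 and 3 left out. Selp, the P-selectin gene that also marks aged HSC, read 68.8, 108.8 and 70.4 CPM against 169 and 157 CPM, groups that did not overlap but whose difference did not pass (adjusted p = 0.0763).

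**Figure D1:**
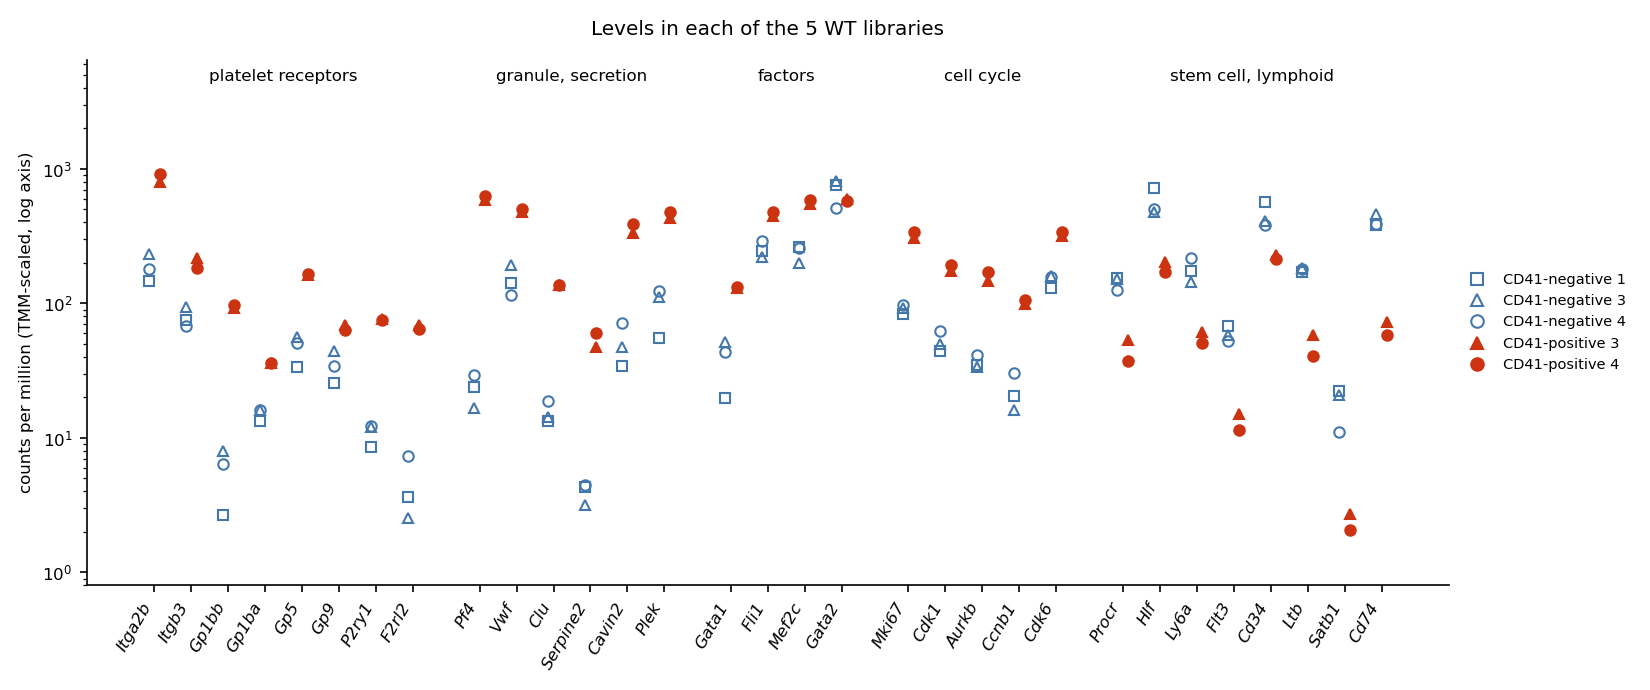
CPM on a log axis for 31 genes in each of the 5 WT libraries, open blue symbols for CD41-negative libraries 1, 3 and 4 and filled red symbols for CD41-positive libraries 3 and 4. Pf4 rises from 16.6 to 29.6 CPM in the blue symbols to 589 and 630 in the red ones, Gata2 overlaps between the fractions, and the stem cell and lymphoid genes at the right are lower in red.

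Granule and secretion genes divided more. Of 26 tested, 13 were higher and 3 lower, with a median log2 of 0.67, and with CD41-negative libraries 1 and 3 left out the counts were 12 and 2. Pf4, the platelet factor 4 chemokine, showed the largest difference of the list. It read 23.9, 16.6 and 29.6 CPM in the CD41-negative libraries and 589 and 629.8 CPM in the CD41-positive ones. The groups lay 26.0-fold apart (log2 4.70 ± 0.43, adjusted p = 3.5e-05), or 4.36 on the log2 scale with library 4 as the sole CD41-negative sample. Per kilobase it stood at 1036 CPM in the CD41-positive group, above Itga2b at 249 and Vwf at 55.3.

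Serpine2, a protease inhibitor of platelets, went from 4.31, 3.17 and 4.43 CPM to 47.5 and 60.7 CPM (13.6-fold). Clu, which encodes the chaperone clusterin and is a mark of aged HSC, read 13.3, 14.3 and 18.9 CPM against 137 and 137 CPM (8.84-fold, adjusted p = 2.23e-05). Vwf, the von Willebrand factor gene used in reporter mice to find platelet-biased HSC, read 142, 193 and 115 CPM against 476 and 502 CPM (3.26-fold, adjusted p = 0.000183). In each of these genes both CD41-positive libraries were above every CD41-negative one, and 98.7% of all passing genes were separated in one direction or the other. Cavin2, a caveolar coat gene, was 7.09-fold higher and Plek, the protein kinase C substrate pleckstrin, 4.69-fold higher.

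Ppbp, the platelet basic protein chemokine, stayed low, at 2.93, 2.85 and 4.58 CPM against 11.1 and 9.996 CPM (adjusted p = 0.00725, and 0.143 with libraries 1 and 3 left out). Nbeal2, needed to form alpha granules, went the other way, from 377, 359 and 209 CPM to 110.4 and 109 CPM (2.88-fold lower, adjusted p = 0.000823), and remained lower at an adjusted p of 0.00952 with libraries 1 and 3 left out. Neither Mmrn1, the multimerin gene, nor Srgn passed. Mmrn1 read 659.6 to 1083 CPM over the 5 libraries (log2 0.09 ± 0.23), and Srgn, which encodes the granule proteoglycan, 321 to 803 CPM (log2 0.40 ± 0.27).

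Of 28 cytoskeletal and signalling genes tested, 7 were higher and 5 lower, and no member was lower with CD41-negative libraries 1 and 3 left out. Without CD41-positive library 4, 3 were higher. With all libraries the number lower was near the share of all genes, of which 18.2% were lower and 15.7% higher. Tuba8, an alpha-tubulin, rose from 15.5, 19.8 and 27.1 CPM to 177 and 213 CPM (9.37-fold, adjusted p = 3.5e-05), and vinculin (Vcl) rose 2.10-fold. Tubb1, the beta-tubulin of platelets, was at 2.95 to 4.38 CPM in the CD41-negative and 5.57 and 7.84 CPM in the CD41-positive libraries (adjusted p = 0.0375, and 0.348 with libraries 1 and 3 left out).

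The genes with the largest rise among those of at least 10 CPM included several outside the lists. Kcnj5, an inward rectifier potassium channel gene, read 0.160, 0 and 0.302 CPM against 12.2 and 17.1 CPM (log2 6.49 ± 0.74, adjusted p = 0.000114). CD41-negative library 3 had no count of it and the other two had a few, so the size of the ratio is poorly set. Pde10a, a phosphodiesterase gene, read 0.905, 1.64, 2.32, 41.2 and 41.2 CPM (25.2-fold), and F10, which encodes coagulation factor X, 0.319, 1.09, 0.705, 17.4 and 16.8 CPM (24.0-fold). Ache, the acetylcholinesterase gene, which megakaryocytes of rodents are known to express, went up 9.31-fold and the actin-bundling gene Pls1 9.70-fold. Cxcl12, a chemokine best known from marrow stroma and a member of the stromal list, read 1.65, 2.24 and 2.22 CPM against 32.7 and 15.6 CPM (11.8-fold, adjusted p = 0.00186). In V617F it averaged 0.501 CPM in CD41-negative and 1.12 CPM in CD41-positive libraries (log2 1.26, adjusted p = 0.205). Cxcl12 did not pass the test of a difference between WT and V617F (adjusted p = 0.566). Stromal and endothelial genes were mixed beside it: of 13 tested 4 were higher and 3 lower, with 2 and 2 when CD41-negative libraries 1 and 3 were left out and 2 and 0 without CD41-positive library 4. Bglap was listed at 0 in all 5 libraries and Col3a1 and Cdh5 stayed under 0.2 CPM, and the summed list was 162 to 206 CPM in the CD41-negative and 192 and 166 CPM in the CD41-positive libraries.

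Of 22 megakaryocyte-erythroid transcription factor genes, 6 rose and 3 fell, against 15.7% and 18.2% of all genes tested. The median log2 was -0.33. With CD41-negative libraries 1 and 3 left out 5 rose and none fell, at a median of 0.06, and without CD41-negative library 4 the number lower was 10. Gata1, the master factor of both lineages, read 19.9, 51.9 and 43.3 CPM against 130.3 and 132 CPM (3.42-fold, adjusted p = 0.00204). Mef2c, a MADS-box factor active in megakaryocytes and lymphoid progenitors, rose from 264, 200.4 and 259.9 CPM to 544 and 582 CPM (2.33-fold), Fli1 1.83-fold and Gfi1b 1.60-fold. These 4 genes passed in every alternative run. Gata2, which acts in HSC themselves, read 764, 816 and 514 CPM against 599 and 575 CPM, overlapping groups with an adjusted p of 0.294. Nfe2 (log2 -0.37 ± 0.16) and the GATA1 cofactor Zfpm1 (log2 -0.37 ± 0.33) did not pass, and with libraries 1 and 3 left out Gata2 and Zfpm1 had positive differences of 0.19 and 0.24 that did not pass either. Lyl1, a stem cell factor related to Tal1, appeared 5.69-fold lower, but not in every library: it read 145 and 208 CPM in CD41-negative libraries 1 and 3, 31.6 CPM in library 4 and 24.8 and 20.3 CPM in the CD41-positive libraries (adjusted p = 0.129 without libraries 1 and 3).

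The erythroid list was split, with 6 of 30 tested higher and 6 lower, near the shares of all genes (15.7% and 18.2%). Its median log2 was -0.04, and -0.145 with CD41-negative libraries 1 and 3 left out. Higher were Mfsd2b, a sphingosine-1-phosphate exporter of red cells and platelets, from 15.6, 68.4 and 53.0 CPM to 284 and 298 CPM (6.36-fold), the water channel Aqp1 (3.62-fold), the transcriptional coactivator Cited4 (3.82-fold) and the erythropoietin receptor Epor (2.38-fold). Lower were red cell membrane genes, among them Add2 (log2 -2.95 ± 0.58), the blood group gene Rhd (log2 -2.05 ± 0.61) and Ermap, which read 3.94, 23.7 and 21.6 CPM against 3.67 and 2.80 CPM. For these the CD41-negative library 1 was the low one of its group. Car1, a carbonic anhydrase of early erythroid cells, read 18.4, 80.2 and 100.7 CPM against 19.5 and 27.3 CPM (adjusted p = 0.0555). No lower erythroid call passed without CD41-positive library 4.

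Genes of cell division rose together. All 32 mitosis genes tested were higher in CD41-positive HSC, with log2 differences from 0.98 to 2.66 and a median of 1.91, and all 32 passed in every alternative run, including the one without CD41-negative libraries 1 and 3 (median 1.60). Mki67, the proliferation antigen gene, read 83.7, 92.1 and 97.6 CPM against 304 and 339 CPM (3.53-fold, adjusted p = 3.38e-05). Aurkb, the chromosome segregation kinase, went from 34.8, 33.9 and 41.5 CPM to 147 and 172 CPM (4.34-fold), and Cdk1, whose promoter is printed above, from 44.3, 50.2 and 62.3 CPM to 175 and 194 CPM (3.53-fold). Both CD41-positive libraries exceeded every CD41-negative one for each of these genes. Ckap2l, a spindle protein gene, was 5.94-fold and the spindle motor Kif11 3.97-fold higher.

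Regulators of the cycle differed by type. Of 21 cyclin, kinase and inhibitor genes, 12 were higher and 1 lower. Cyclin genes Ccnb1 (4.57-fold) and Ccna2 (3.20-fold), which act in S phase and mitosis, and Ccne2 (2.94-fold) and Ccne1 (2.30-fold), which act at entry into S phase, rose, and Cdk6, the kinase whose level is known to govern exit of HSC from rest, rose from 129, 159 and 157 CPM to 316 and 339 CPM (2.20-fold, adjusted p = 0.00043). Ccnd2, a D cyclin gene, read 770.2, 518 and 538 CPM against 576 and 542 CPM, overlapping groups (adjusted p = 0.612). Cdkn1c, the p57 inhibitor of resting HSC, was the member that fell (1.81-fold lower, adjusted p = 0.0134), but not with libraries 1 and 3 left out (adjusted p = 0.205). The inhibitor Cdkn2c was 2.49-fold higher.

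DNA replication genes were higher in 33 of 38 cases and lower in none, with a median log2 of 0.72. This count was 33 with CD41-negative libraries 1 and 3 left out and 18 without CD41-positive library 4. Rrm2, a subunit of ribonucleotide reductase, read 77.4, 77.1 and 84.4 CPM against 203 and 221 CPM (2.66-fold, adjusted p = 2.23e-05), and thymidine kinase Tk1 26.5, 26.7 and 37.8 CPM against 105 and 117 CPM (3.65-fold). The promoters of the lists can be set beside these values. CCAAT letters were in 22 of 27 mitosis promoters on file (81.5%) and in 19 of 31 of DNA replication genes (61.3%), and TTTGAA in 9 of 27 (33.3%) and 4 of 31 (12.9%). Of the promoters of all tested genes, 36.6% held CCAAT letters and 11.1% TTTGAA. E2F letters (TTTGGCGC or else TTTCCCGC or else TTTCGCGC) were in 7 of 31 replication promoters (22.6%), 1 of 27 mitosis promoters (3.70%) and 3.01% of those of all tested genes. GATA letters were in 9 of 22 platelet receptor promoters (40.9%), 3 of 19 granule gene promoters (15.8%) and 17.4% of those of all tested genes, and ETS letters in 13 of 22 (59.1%), 9 of 19 (47.4%) and 46.2%. Promoters of genes higher by 2-fold or more held GATA letters in 17.4%, ETS in 43.5%, TTTGAA in 19.4% and CCAAT in 48.7%. For genes lower by 2-fold or more these shares were 17.6%, 43.0%, 10.1% and 33.1%. CCAAT letters were also in 7 of 10 promoters of the MHC class II list (70.0%), whose genes were mostly lower.

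**Figure D2:**
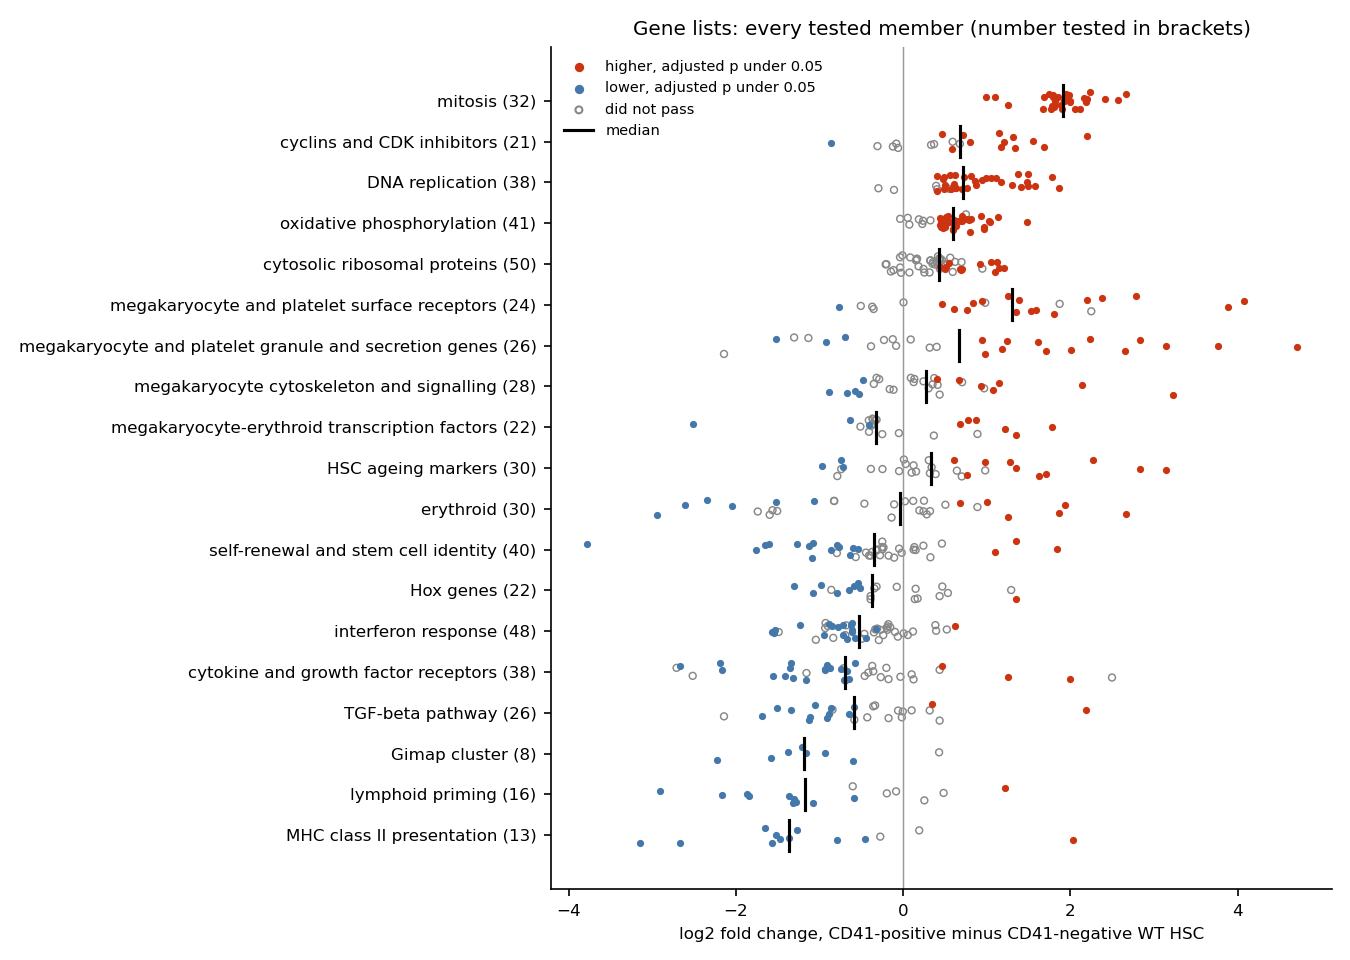
Log2 difference between CD41-positive and CD41-negative WT HSC for every tested member of 19 gene lists, red where higher and blue where lower at an adjusted p under 0.05, open grey where it did not pass, with the list median as a black bar. All 32 mitosis genes lie between 0.98 and 2.66, and the lymphoid priming and MHC class II lists lie mostly below 0.

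Genes of the respiratory chain were higher by small amounts. Of 41 oxidative phosphorylation genes, 33 passed as higher and none as lower, with a median log2 of 0.60, against 15.7% of all genes higher. Cox8a, a cytochrome oxidase subunit, read 111, 90.9 and 139.9 CPM against 216 and 217 CPM (1.90-fold, adjusted p = 0.00256). The number higher was 16 with CD41-negative libraries 1 and 3 left out, 10 without CD41-positive library 3 and 3 without CD41-positive library 4. Most cytosolic ribosomal protein genes did not pass: of 50 tested, 13 were higher, none lower and 37 not past the threshold (median 0.42). The number higher was 1 with libraries 1 and 3 left out, against 6.33% of all genes in that fit, and 1 and 0 without CD41-positive library 3 or 4. It was 21 without CD41-negative library 4 and 21 with limma-voom and sample weights. Both lists stood at lower medians in MkP against LT-HSC, of -0.52 and -0.55, with no member passing.

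Stem cell genes were lower on balance. Of 40 self-renewal and stem cell identity genes 14 were lower and 3 higher, with a median log2 of -0.34, and 8 were lower with CD41-negative libraries 1 and 3 left out. Without CD41-positive library 4 the number lower was 3, and without CD41-negative library 4 it was 21. Hlf, a transcription factor that marks HSC, read 721, 480.3 and 503 CPM against 201 and 172 CPM (3.04-fold lower, adjusted p = 0.000803). Procr, the endothelial protein C receptor of HSC, read 154, 151 and 126 CPM against 53.8 and 37.5 CPM (3.15-fold lower, adjusted p = 0.00677, and 0.0637 with libraries 1 and 3 left out). Mecom, the EVI1 factor gene, was 1.74-fold lower and Txnip, a redox regulator abundant in resting cells, 2.18-fold lower. Gfi1, a repressor of HSC proliferation that also acts in granulocytes, fell from 31.5, 30.4 and 16.7 CPM to 2.98 and 0.862 CPM (13.8-fold, adjusted p = 0.000628). The genes that were higher included Ctnnal1 (alpha-catulin, 2.15-fold) and the low-level gene Id3. Meis1, Gata2, Tal1 and Erg did not pass.

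Among surface markers outside the gate, the tetraspanin Cd9 was 2.62-fold higher, while Flt3 (4.50-fold), Cd27 (2.11-fold) and Cd34 (2.05-fold), which mark HSC and progenitors with lymphoid or myeloid output, were lower. Flt3 read 67.7, 57.9 and 52.7 CPM against 14.96 and 11.5 CPM (adjusted p = 0.000103), with no overlap, and Flt3 and Cd27 passed in every alternative run. The HSC ageing list, which shares Clu, Vwf, Itgb3, Slamf1 and Cavin2 with the platelet lists, had 10 of 30 genes higher and 3 lower, and 7 and 1 with CD41-negative libraries 1 and 3 left out. Outside that overlap Clca3a1, a chloride channel regulator, was 4.83-fold higher. Of 22 genes of the Hox list 8 were lower, 2 were lower with CD41-negative libraries 1 and 3 left out, and none without CD41-positive library 4.

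Genes of lymphoid priming fell. Of 16 tested, 10 were lower and 1 higher, with a median log2 of -1.18, and 8 were lower with CD41-negative libraries 1 and 3 left out. Ltb, the lymphotoxin beta gene, read 169.8, 183 and 181 CPM against 58.1 and 40.8 CPM (3.60-fold lower, adjusted p = 3.5e-05). Satb1, a chromatin organiser of lymphoid-primed HSC, read 22.2, 21.0 and 11.03 CPM against 2.74 and 2.07 CPM (7.52-fold lower), and Notch1 was 3.63-fold and Il12rb1 2.5-fold lower. Mef2c was the member that rose. Il7r, Rag1 and Rag2 were below the count filter, so those genes of committed lymphocytes enter no count. The B cell list summed to 41.1, 52.8 and 49.3 CPM against 45.3 and 43.1 CPM, most of it Cd79b.

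Genes of antigen presentation by MHC class II were lower in the same libraries. Of 13 tested, 10 were lower and 1 higher, with a median log2 of -1.36, and 8 were lower with CD41-negative libraries 1 and 3 left out. Cd74, the invariant chain, read 385, 463 and 392 CPM against 72.2 and 57.8 CPM (6.36-fold lower, adjusted p = 5.36e-05). The chain genes H2-Ab1 (2.78-fold), H2-Aa (2.97-fold) and H2-Eb1 (2.57-fold) and their coactivator Ciita (3.13-fold) were lower too. Ctss, a protease that processes the invariant chain, read 19.2, 18.2 and 24.4 CPM against 2.35 and 2.28 CPM (8.89-fold lower). Ifi30, a lysosomal thiol reductase, was the exception that rose, from 1.33, 2.63 and 2.52 CPM to 7.82 and 9.91 CPM. The macrophage marker list summed to 605, 531 and 480.2 CPM in the CD41-negative and 424 and 405 CPM in the CD41-positive libraries, most of it Lyz2. All 16 of its genes tested had negative differences, with a median log2 of -1.16, and 4 passed as lower (Cd68, Cd14, Irf8 and Itgam), 2 of them with CD41-negative libraries 1 and 3 left out. Its defining markers Csf1r and Adgre1 were at or under 1.81 CPM, and the part of macrophages in the class II difference was not tested.

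Of 8 genes of the Gimap cluster of immune GTPases on chromosome 6, 7 were lower, with a median log2 of -1.18. Gimap6 read 339.8, 310.1 and 336 CPM against 193 and 151 CPM (1.91-fold lower), and Gimap5 was 2.23-fold lower. Gimap9 overlapped between groups. The number lower was 5 with CD41-negative libraries 1 and 3 left out and 2 without CD41-positive library 4. Members of this family and of the Gbp family below are similar in sequence, and how the counting split shared reads is not given in the sources used here.

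Interferon response genes were lower in 18 of 48 cases and higher in 1 (median -0.53), with 19 lower when CD41-negative libraries 1 and 3 were left out, 8 without CD41-positive library 3 and 4 without CD41-positive library 4. Irf1, a factor of the interferon response, read 245, 259.9 and 281 CPM against 146 and 126 CPM (1.93-fold lower, adjusted p = 0.000314). The guanylate-binding protein gene Gbp9 read 60.7, 57.9 and 60.4 CPM against 25.6 and 14.6 CPM (2.97-fold lower), Gbp4 was 2.93-fold and the RNA sensor Ddx58 1.71-fold lower. Ifit2 was the gene that rose (1.54-fold).

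Cytokine receptor genes were lower in many cases. Of 38 cytokine and growth factor receptor genes 18 were lower and 3 higher (median -0.70), and 12 were lower with CD41-negative libraries 1 and 3 left out and 9 without CD41-positive library 4. Il2rg, the common gamma chain, read 248, 208 and 214 CPM against 89.8 and 77.6 CPM (2.67-fold lower, adjusted p = 4.82e-05). Csf3r, the granulocyte colony factor receptor, was 2.95-fold lower, and the paralogs Csf2rb (4.57-fold) and Csf2rb2 (6.37-fold), whose shared reads make each uncertain, were lower too. Of 26 genes of the TGF-beta pathway, which is known to hold HSC at rest, 11 were lower and 2 higher, and 6 were lower with libraries 1 and 3 left out and 3 without CD41-positive library 4. The type II receptor Tgfbr2 read 113, 117 and 103 CPM against 62.8 and 55.2 CPM (1.88-fold lower), while Ltbp1, a latent TGF-beta binding protein, rose from 1.12, 2.79 and 1.56 CPM to 7.82 and 8.70 CPM (4.53-fold). Of 25 JAK-STAT genes 8 were lower and 2 higher: the adaptor Sh2b3, which restrains cytokine signals, was 3.31-fold lower and Stat3 1.87-fold lower, while Jak2 overlapped between groups (log2 -0.27 ± 0.15). The number lower in that list was 4 with libraries 1 and 3 left out and 3 without CD41-positive library 4.

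Among integrins besides Itga2b and Itgb3, Itgb7 was 3.46-fold lower and Itgam 10.3-fold lower. Itgam, a myeloid gene used in lineage staining, read 77.4, 51.9 and 28.4 CPM against 5.03 and 5.17 CPM (adjusted p = 0.000995, and 0.0149 with libraries 1 and 3 left out). Itgb6 rose from 0.373, 1.09 and 2.52 CPM to 7.77 and 9.44 CPM, and Itga6 was level at 269 to 301 CPM.

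Neutrophil granule genes differed by large ratios, and their level rested on 1 library. Ltf, the lactoferrin gene, read 49.3, 0.985 and 6.30 CPM against 0.440 and 0.345 CPM, and Mpo, the myeloperoxidase gene, 75.7, 4.16 and 3.02 CPM against 1.12 and 0.776 CPM. CD41-negative library 1 was the high one in both. With libraries 1 and 3 left out the log2 difference moved from -5.58 to -4.00 for Ltf and from -4.86 to -1.68 for Mpo. Of 20 granulocyte genes tested 11 were lower and none higher, against 4 lower without that library and 3 lower without libraries 1 and 3, and 2 lower without either CD41-positive library. Mpo had an adjusted p of 0.0443 with all libraries, 0.291 without library 1 and 0.539 without libraries 1 and 3. The 3 that passed without both libraries were Gfi1, Csf3r and Prtn3. Fam117a, also among the largest falls, read 318, 522 and 59.99 CPM against 41.5 and 38.1 CPM, a log2 difference of -2.92 with all libraries and -0.60 without libraries 1 and 3.

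**Figure D3:**
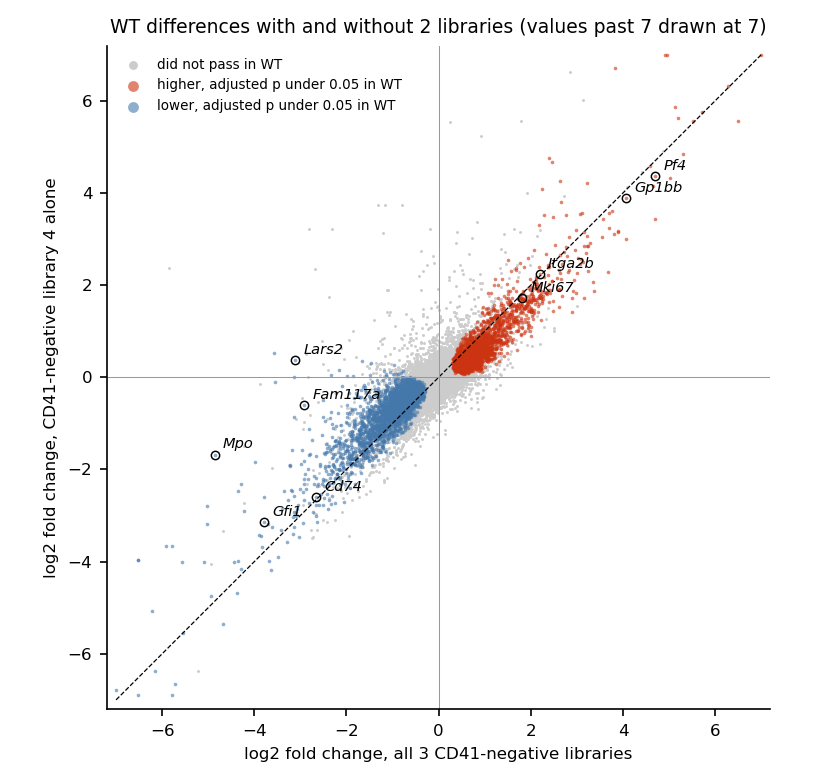
Log2 differences in WT with all 3 CD41-negative libraries (horizontal) and with CD41-negative library 4 as the sole CD41-negative sample (vertical), 1 point per gene, coloured by the call with all libraries. Pf4, Gp1bb, Mki67, Cd74 and Gfi1 lie near the diagonal, while Mpo, Fam117a and Lars2 move towards 0 or past it.

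The same contrast in V617F HSC gave 2376 genes higher (16.4% of 14467) and 2584 lower (17.9%). It used other libraries, which shared with the WT ones only the estimate of spread in the fit. Of the 4917 WT calls, 4770 had the same sign in V617F (97%), against 77.7% of all genes tested. Genes higher in both numbered 1547, which is 67.9% of the WT and 65.1% of the V617F list, and genes lower in both 1658, or 62.8% and 64.2%. The test of a difference between both contrasts passed for no gene (0%) with edgeR, with 1274 genes at an unadjusted p under 0.05 (8.81%). DESeq2 called 6, limma-voom 0 and limma-voom with sample weights 496, and edgeR called 1766 without CD41-negative library 4.

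Mitosis genes were higher in V617F in 32 of 32 cases too, at a median of 1.71 against 1.91 in WT, and platelet receptors in 16 of 24, at 1.14 against 1.30. Pf4 differed by 5.55 on the log2 scale in V617F and 4.70 in WT, Gata1 by 2.87 and 1.77, and Cd74 by -2.81 and -2.67. Interferon response genes were lower in 35 of 48 in V617F and 18 of 48 in WT, and erythroid genes higher in 13 of 30 and 6 of 30, but no single gene of either list passed the test of the difference. Only Lepr and Pde9a passed in opposite directions. Lepr, the leptin receptor, read 0.319, 0.328 and 0.201 CPM against 2.69 and 2.24 CPM in WT (log2 3.10 ± 0.78) and differed by -2.89 in V617F, with an adjusted p of 0.566 for the difference between contrasts.

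**Figure D4:**
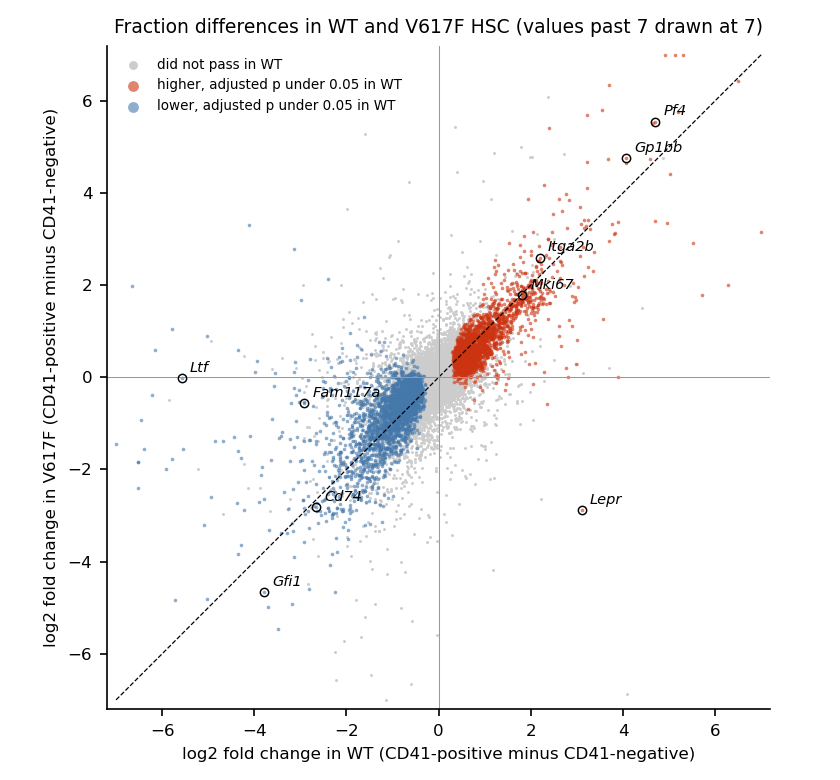
Log2 difference between CD41-positive and CD41-negative HSC in WT (horizontal) and in V617F (vertical), 1 point per gene, coloured by the WT call. Of the 4917 coloured genes 4770 lie in the quadrants of equal sign, and Lepr is marked as 1 of 2 genes that passed in opposite directions.

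WT MkP against LT-HSC, from the other kit, had 331 genes higher (2.32% of 14281) and 940 lower (6.58%). Of the 674 genes higher by 2-fold or more in CD41-positive HSC and measured there, 141 were also higher in MkP (20.9%) and 8 lower. Of 1034 lower ones, 264 were also lower in MkP (25.5%) and 3 higher. Pf4 was higher by 5.16 on the log2 scale in MkP against LT-HSC (4.70 between the CD41 fractions), Gp1bb by 6.78 (4.07), F2rl2 by 5.16 (3.89) and Vwf by 2.80 (1.71). Of the stem cell genes Procr was also lower in MkP, and Hlf differed by -2.20 (-1.60). Clu and Cd9, higher in CD41-positive HSC, did not pass there (adjusted p = 0.121 and 0.23). Of 32 mitosis genes 17 were higher in MkP and none lower.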

How the data were processed

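Poly(A) RNA was sequenced from sorted mouse bone marrow cells after SMART-Seq v4 or v2 amplification and Nextera XT library preparation, per the labels' protocols. The deposited table holds whole-number read counts for 24454 genes, identified by Entrez number and symbol, with a gene length in bases beside the counts. The submitters' processing notes name STAR 2.5.2a, R 3.4.2, limma and the build mm10, while the counting program and its handling of shared reads and strand are not given in the sources used here. Sample columns were matched to libraries by the titles in the labels.

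The 11 SMART-Seq v4 libraries were fitted together with 1 mean per group using the quasi-likelihood test of edgeR 4.0.16 in R 4.3.3, after TMM scaling and the edgeR filter on low counts, which left 14467 genes. The SMART-Seq v2 libraries had a fit of their own with 12 libraries and 14281 genes. P-values are those of edgeR unless another tool is named, adjusted by Benjamini-Hochberg over all genes tested, with 0.05 as the threshold, and folds are between fitted group means. Groups are said to overlap where any library of one lies within the range of the other. A floor of 3 counts corresponded to 0.131 to 0.171 CPM in the 5 libraries. Counts over a kilobase of the deposited length were used to compare levels between genes.

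The members and the 34 gene lists were chosen with earlier results of these data known, so counts over lists are descriptions. They are to be read beside the shares of all genes tested, 15.7% higher and 18.2% lower. Of 777 listed genes 770 matched the table. Named genes were the 12 largest changes per direction with at least 10 CPM and no overlap, members of the lists that passed or had the smallest p, and a set of gate, platelet and stem cell genes. Other genes named, among them Lars2, F2rl3, Mmrn1, Srgn, Ccnd2, Jak2, Itga6, Gimap9, Lepr and Pde9a, were chosen after their values were seen. Values of some genes are not reported here. Upstream sequences came from RefSeq for GRCm38.p6, which held entries for 11312 of the genes tested. Alternatives were DESeq2 1.42.0, limma 3.58.1 with voom, with and without sample weights, other scaling and filters, a block on replicate number, other sets of libraries, and each library left out. Leaving out CD41-negative libraries 1 and 3 together was chosen after seeing the data. On simulated counts for this comparison over 14467 genes the test recovered 76 of 100 genes changed 2-fold and 99 of 100 changed 4-fold, with 10 false calls. The 200 changed genes were drawn from those of at least 10 CPM, and the CD41-negative libraries shared 1 mean per gene. No simulated library stood apart as CD41-negative libraries 1 and 3 did, so these false calls do not measure the error in the data.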

Additional observations from a re-analysis of the deposited data

How the results depend on the processing

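The total of 4917 genes was 2028 (930 higher, 1098 lower) with only the 5 WT libraries in the fit, and 1926 (929 higher, 997 lower) with CD41-negative libraries 1 and 3 left out, an alternative chosen after seeing the data. Leaving out single WT libraries gave totals of 1215 to 7082, with 605 to 3507 higher and 610 to 3575 lower. The lowest were without CD41-positive library 4 and the highest without CD41-negative library 4. The test of the difference between WT and V617F called 0 genes with edgeR and 6 with DESeq2, 496 with weighted voom and 0 to 1766 with single libraries left out. The cause was not tested. WT calls had the same sign in V617F in 97% of cases. The share was 95.9% with DESeq2, 97.7% with voom, 91.3% with weighted voom and 97.9% with the replicate block. It was 97.7% without the V617F libraries labelled male and 99.5% without CD41-negative libraries 1 and 3. With single libraries left out it was 86.8% to 99.7%.

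Of 145 named genes none of those that passed changed sign under any alternative run, and of those that did not pass 4 did. Where groups do not overlap, leaving out libraries can hardly change the sign. Without CD41-negative libraries 1 and 3 Gata2 had a log2 difference of 0.19 and Zfpm1 of 0.24, and with weighted voom Klrb1c had 0.088. With single libraries left out Cd48 ran from -0.41 to 0.14 (positive without CD41-negative library 4, at 0.076, and without CD41-positive library 3), and Zfpm1 from -0.60 to 0.14 and Klrb1c from -0.48 to 0.000463 (both highest without CD41-negative library 3). Gata2 passed as lower without CD41-negative library 4 (-0.43) and with weighted voom (-0.32). Those no longer past the threshold numbered 42 without CD41-positive library 4, 23 without CD41-positive library 3, 25 without CD41-negative libraries 1 and 3 and 16 with only the WT libraries. With a block on replicate number 4769 genes passed, among them 32 of 50 cytosolic ribosomal protein genes as higher and 30 of 48 interferon response genes as lower, against 13 and 18 without it. Deviations of equal-numbered WT libraries correlated at 0.0744 and 0.0149, against 0.431, 0.551 and 0.41 in V617F. With 2 CD41-positive WT libraries the deviations of one mirror those of the other. These values therefore cannot tell whether equal WT numbers mark the same mouse, and the labels do not say. With 2 CD41-positive libraries, leaving 1 out leaves a single sample, whose spread is assumed to be like that of the other groups.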

Other observations

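Gene families outside the lists were chosen after their values were seen. Of all genes tested 15.7% were higher and 18.2% lower. Fewer of all genes passed with CD41-negative libraries 1 and 3 left out, as given above. Among the shortest genes, up to 1739 bases, 24.8% were higher. The part of gene length in the family differences was not tested. Of 78 mitochondrial ribosomal protein genes 52 were higher in CD41-positive HSC and none lower, with a median log2 of 0.53, and 8 were higher with CD41-negative libraries 1 and 3 left out. Genes named as Psm, mostly proteasome subunits but with Psmg2 and Psmc3ip among them, were higher in 25 of 49 cases. Their median log2 was 0.46, and 0.31 with those libraries left out. Histone genes were higher in 25 of 63 cases at a median of 0.97, and in 11 with those libraries left out. These genes are similar in sequence and many of their transcripts lack a poly(A) tail. Genes with names that start with Ncap or Smc and a number were higher in 11 of 14 cases. Most encode condensin and cohesin subunits, which fold and hold chromosomes, but Smc5, Smc6 and Smc2os are among them. Their median log2 was 1.15, and 0.78 with those libraries left out. Guanylate-binding proteins, which share members with the interferon list, were lower in 9 of 11 cases at a median of -1.24, and in 7 with those libraries left out. Of 706 long noncoding RNA genes 47 were higher (6.66%) and 76 lower (10.8%), and 17 and 16 with those libraries left out. Of 338 Zfp zinc finger genes 9 were higher (2.66%) and 45 lower (13.3%), and 2 and 17 with those libraries left out. These shares were below those of all genes tested.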
